A study of Mus musculus with 9 samples.

Results

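The cells described here are induced neurons in which no transcript of Snap25 or of Syt1 was counted. They come from mouse embryonic fibroblast (MEF) cultures that were transduced with the BAM genes, which include Brn2 (Pou3f2) and Myt1l and convert fibroblasts into induced neurons. A cell was taken as a neuron when at least 4 of the 8 neuronal genes Stmn2, Stmn3, Elavl3, Elavl4, Dcx, Celf3, Nsg1 and Scg3 had a unique molecular identifier (UMI, 1 counted transcript) and when Col1a1, Col1a2 and Col3a1 together held fewer than 60 UMI per 10,000. It was Snap25/Syt1-negative when both genes had 0 UMI. The members were thus chosen by measured counts of these 13 genes. By this rule 391 of the 8438 neurons were Snap25/Syt1-negative, which is 4.63% of neurons (95% confidence interval (CI) 4.20 to 5.10) and 0.477% of the 81999 cells that passed the limits on UMI and mitochondrial content. The other 8047 neurons carried Snap25 or Syt1 and are called Snap25/Syt1-positive. Every CI of a share given here covers counting error only and not the spread between libraries.

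Snap25 (chr2:136713453-136782428, plus strand, GRCm38) encodes a membrane-bound SNARE protein that takes part in fusing vesicles with the plasma membrane, and Syt1 (chr10:108497650-109010982, minus strand) encodes the synaptic vesicle calcium sensor that triggers transmitter release. Both are switched on as neurons mature, after early neuronal genes such as the microtubule-associated Dcx and the RNA-binding protein gene Elavl3. In the BAM cocktail, Pou3f2 is a POU-domain factor that acts on neuronal genes, and Myt1l represses genes of other lineages. A count of 0 in a single cell is a limit of detection and not evidence that a gene is silent. Among the Snap25/Syt1-positive neurons the median was 2 UMI of Snap25 and 5 UMI of Syt1, and 472 of them were called positive on 1 UMI of both genes together.

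The 9 libraries were of WT, Per1-/- and Per2-/- cultures at days 4, 7 and 10 of reprogramming, with 1 library per genotype and day. The mutants carried the targeted alleles Per1tm1Drw or Per2tm1Drw, which disrupt a period gene of the circadian clock. The MEFs of all groups were made from embryos without head and heart, with several embryos pooled in a dish and sex not determined. All cultures, WT included, received the same BAM and rtTA lentiviruses and doxycycline, and they were kept in the same N3 medium. BAM transcripts of the virus and of the cell's own genes are counted together and cannot be told apart.

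Library totals ranged from 126625215 to 353198559 UMI, and the median of kept cells was 11514 to 28744 UMI, lowest in WT at day 10. The 391 Snap25/Syt1-negative neurons had a median of 13903 UMI, 4052 genes and 6.85% mitochondrial UMI, against 14084 UMI, 4406 genes and 5.98% in the Snap25/Syt1-positive neurons. These medians are pooled over libraries, and within libraries the depth of the classes differed in both directions. In WT at day 10 the medians were 6611 and 16277 UMI, and in Per2-/- at day 4 they were 7561 and 10638. In WT at day 7 they were 18239 and 12941.5 UMI. Day 10 was counted against another gene table than days 4 and 7, so day 10 and the table cannot be told apart. No 2 libraries shared a barcode among the Snap25/Syt1-negative neurons, and 8 of their barcodes also occurred in another library. Libraries of the series shared 13 to 365 barcodes in the 36 pairs. The knockouts could not be checked with these cells, since the tag lies at the 3′ end of the transcript. Per1 had 8, 5 and 0 UMI in the WT cells at days 4, 7 and 10, and 17, 2 and 2 UMI in the Per1-/- cells.

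The Snap25/Syt1-negative neurons were a small class in every library. WT held 49 at day 4, 28 at day 7 and 27 at day 10, which was 3.51% (CI 2.61 to 4.61), 3.03% (2.02 to 4.35) and 8.88% (5.93 to 12.7) of its neurons. Per1-/- held 65, 17 and 16, which was 3.55% (2.75 to 4.51), 4.70% (2.76 to 7.41) and 4% (2.30 to 6.41). Per2-/- held 49, 46 and 94, which was 4.31% (3.21 to 5.66), 4.47% (3.29 to 5.91) and 8.91% (7.26 to 10.8). The highest shares were those of WT and Per2-/- at day 10, and the counting intervals of the other 7 libraries overlapped each other.

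The slope of the share over days, averaged over genotypes, was 0.579 percentage points per day (exact permutation test over libraries, two-sided p = 0.102, adjusted p = 0.407 over 5 tests). The smallest p that this test allows is 0.00926. The slope was 0.104 without the cells with markers of another class described below and 0.121 when 6 of the 8 neuronal genes were required. The share in Per1-/- minus the mean of the other 2 genotypes was -1.44 percentage points (exact permutation p = 0.259), and the same difference for Per2-/- was 1.29 (exact permutation p = 0.370), where the smallest possible p is 0.037. After adjustment both p were 0.407. When each cell was thinned to 10000 UMI, leaving out shallower cells and classing the rest again, 220 of 4999 neurons were Snap25/Syt1-negative (4.40%). The share at day 10 was then 5.59% in WT, 6.85% in Per1-/- and 4.17% in Per2-/-, and both genotype differences changed sign. Expressed per kept cell, the share was 0.175% to 0.788% of a library, with a slope of -0.0218 percentage points per day (exact permutation p = 0.407) and a Per1-/- difference of -0.166 (exact permutation p = 0.259). That slope was -0.0526 without the cells with markers of another class (exact permutation p = 0.0278) and 0.0089 without Per2-/- at day 4, and with thinning the Per1-/- difference was 0.0088.

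**Figure D1:**
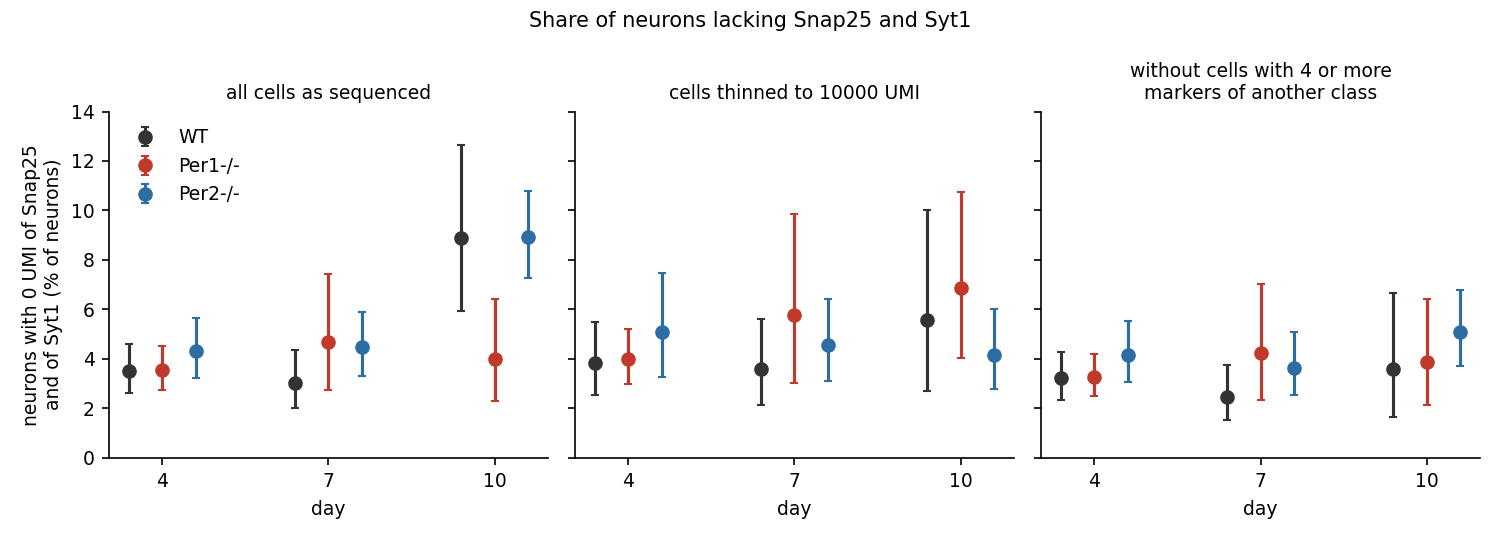
Percent of neurons with 0 UMI of Snap25 and of Syt1 (y axis) by day (x axis) and genotype (colour), 1 point per library with exact binomial 95% intervals for counting error, shown for all neurons, for cells thinned to 10000 UMI, and without cells that carry 4 or more markers of another cell class. WT and Per2-/- at day 10 stand at 8.88% and 8.91% in the first panel and at 5.59% and 4.17% after thinning, where Per1-/- at day 10 moves from 4% to 6.85%.

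Most Snap25/Syt1-negative neurons passed the neuron rule narrowly. Of the 391 cells, 206 (52.7%) had exactly 4 of the 8 neuronal genes and 7 (1.79%) had all 8, against 17.1% and 18% of the Snap25/Syt1-positive neurons. Just outside the rule stood 604 cells without Snap25 and Syt1 that had 3 of the genes, with a median of 18111 UMI, beside 16494 UMI in the 206 cells with 4. At the collagen limit, 43 members lay between 40 and 60 UMI per 10,000 and 39 otherwise similar cells between 60 and 80.

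The markers named for these cells were present in unequal shares of them. Elavl3 and Dcx, which the rule used, had a UMI in 75.7% and 65.5% of Snap25/Syt1-negative neurons, and Stmn3, a microtubule-destabilising stathmin, in 58.6%. Of the markers outside the rule, Sox11, a transcription factor of newborn neurons, was detected in 85.7%, and Hes6, which antagonises Hes1, in 72.6%. Insm1, a zinc-finger factor of cells leaving the progenitor state, was detected in 37.1%. In the Snap25/Syt1-positive neurons, Elavl3 was detected in 94.2%, Dcx in 63.6% and Stmn3 in 74.9%. Sox11 was detected there in 91.5%, Hes6 in 86.5% and Insm1 in 73.0%, so all but Dcx were more frequent in that class. In macrophages the shares were 21.8% for Sox11, 43.3% for Hes6 and 3.06% for Insm1, at a median of 23322 UMI. The source of these transcripts in macrophages was not tested. Pooled over libraries, the 3 shares of the Snap25/Syt1-negative neurons were above those of the deeper macrophages. By library, Hes6 ran from 40.7% to 90.8% in the Snap25/Syt1-negative neurons and reached 63.8% in macrophages, so the ranges overlapped, and it was at 49.5% in the cells with 4 or more markers of another class, which are described next. In cells thinned to 10000 UMI, Sox11 was detected in 88.6% of Snap25/Syt1-negative and 88.8% of Snap25/Syt1-positive neurons, Hes6 in 78.2% and 80.6%, and Insm1 in 40.9% and 65.7%.

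The label of neuron did not hold for all of these cells on their other markers. Of the 391, 109 (27.9%, CI 23.5 to 32.6) carried at least 4 markers of macrophages, Schwann cells or astrocytes, against 6.70% of Snap25/Syt1-positive neurons. This limit of 4 markers was set after the data were seen. Macrophage markers (Csf1r, the C1q genes and 4 others) reached it in 44 cells (11.3%, against 4.09%), Schwann markers such as Sox10 and Ngfr in 38 (9.72%, against 2.10%), and astrocyte markers such as Aqp4 and Slc1a3 in 36 (9.21%, against 1.18%). Few cells met it for several classes, since 4 were counted under macrophage and Schwann, 5 under macrophage and astrocyte, and 1 under Schwann and astrocyte. No Snap25/Syt1-negative neuron had 4 endothelial or 4 epithelial markers.

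Cells with markers of another class were unevenly spread over the libraries. They made up 10.2%, 10.8% and 6.12% of the Snap25/Syt1-negative neurons of WT, Per1-/- and Per2-/- at day 4 and 25%, 17.6% and 28.3% at day 7. At day 10 they made up 66.7% in WT (18 of 27), 12.5% in Per1-/- (2 of 16) and 54.3% in Per2-/- (51 of 94). The 2 libraries with the highest shares of Snap25/Syt1-negative neurons were thus also those with the most such cells. Without these cells the class was 282 of 7790 neurons (3.62%), with 3.57% in WT and 5.09% in Per2-/- at day 10, and the Per1-/- difference in its share became 0.104 percentage points (exact permutation p = 0.852).

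Pooled over libraries, the cells with markers of another class were deeper than the rest, with a median of 21478 UMI against 11394 over all libraries. This did not hold in the library with the largest share of them, WT at day 10, where their median was 6588.5 UMI against 6611 for all its Snap25/Syt1-negative neurons, and in Per2-/- at day 10 it was 17769 against 16547. Among members with exactly 4 neuronal genes, 38.8% carried such markers, and among the 7 members with all 8 neuronal genes 0 did. Doublet scores ranked 36 members (9.21%) and 664 Snap25/Syt1-positive neurons (8.25%) among the likely doublets, and 25 of the 36 were cells with markers of another class. Thinned to 10000 UMI, 18.6% of Snap25/Syt1-negative and 4.58% of Snap25/Syt1-positive neurons carried such markers. The part of doublets and of free RNA in these cells was not tested. Results below are given with all 391 cells, and the values without the 109 are given beside those that turn on them.

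**Figure D2:**
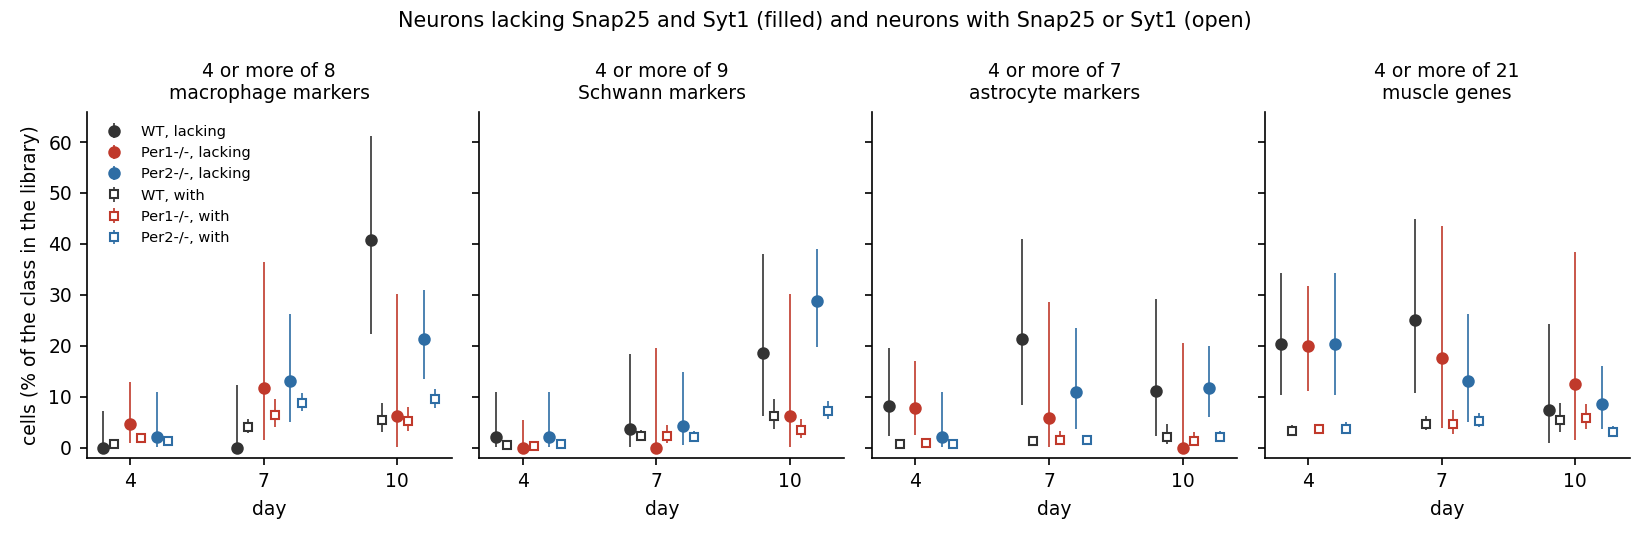
Percent of Snap25/Syt1-negative (filled) and Snap25/Syt1-positive (open) neurons that carried at least 4 markers of macrophages, Schwann cells or astrocytes, or at least 4 muscle genes (y axis, percent of the class in the library), by day and genotype, with exact binomial 95% intervals. Macrophage markers reached 40.7% in WT at day 10 and Schwann markers 28.7% in Per2-/- at day 10, whereas muscle genes were at 17.6% to 25% in all libraries of days 4 and 7 except Per2-/- at day 7.

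Muscle genes marked another part of the class. At least 4 of 21 muscle genes were detected in 61 of the 391 cells (15.6%, CI 12.1 to 19.6), against 324 Snap25/Syt1-positive neurons (4.03%), and 7 of the 61 also carried markers of another class. Thinned to 10000 UMI, the shares were 12.7% and 1.51%. Without thinning, the shares in the Snap25/Syt1-negative neurons were 20.4%, 20% and 20.4% in WT, Per1-/- and Per2-/- at day 4, 25%, 17.6% and 13.0% at day 7, and 7.41%, 12.5% and 8.51% at day 10. This count was also chosen after the data were seen. Tnnt2, a cardiac troponin T gene, reached 124 to 1457 CPM (a gene's share of all UMI of the class in a library, as counts per 1e6) in the Snap25/Syt1-negative neurons, with a median of 449 over the libraries, against 64.0 to 437 with a median of 218.

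The reprogramming factors Pou3f2 and Myt1l were at lower levels in the Snap25/Syt1-negative neurons. Because Snap25 and Syt1 chose the cells, all differences between the 2 classes are given as a description over the 9 libraries, with no test. Pou3f2 was at 645, 616 and 757 CPM in WT, Per1-/- and Per2-/- at day 4, at 209, 337 and 352 at day 7, and at 120, 426 and 127 at day 10. Its range in the Snap25/Syt1-positive neurons was 1185 to 2061 CPM, so the classes did not overlap. Myt1l was at 18.4, 3.06 and 45.2 CPM at day 4, 9.49, 12.9 and 15.5 at day 7, and 2.86, 22.2 and 3.07 at day 10, below the 61.4 to 180 CPM of the Snap25/Syt1-positive neurons in every library.

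The same was seen in the share of cells with a UMI of each factor. Pou3f2 was detected in 63.2% of Snap25/Syt1-negative and 92.2% of Snap25/Syt1-positive neurons, and Myt1l in 12% and 34.9%. Among cells of at least 10000 UMI, thinned to 10000 and classed again, the shares were 57.3% and 90.5% for Pou3f2, and 8.18% and 29.8% for Myt1l. The thinned classes are another set of cells than the 391 and the 8047. Pou3f2 was detected in 64.2% of the cells with markers of another class and in 62.8% of the other Snap25/Syt1-negative neurons, and Myt1l in 6.42% and 14.2%. The cells with markers of another class were deeper, at a median of 21478 UMI against 11394, so like shares need not mean like levels. In macrophages the shares were 22.8% and 1.70%.

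**Figure D3:**
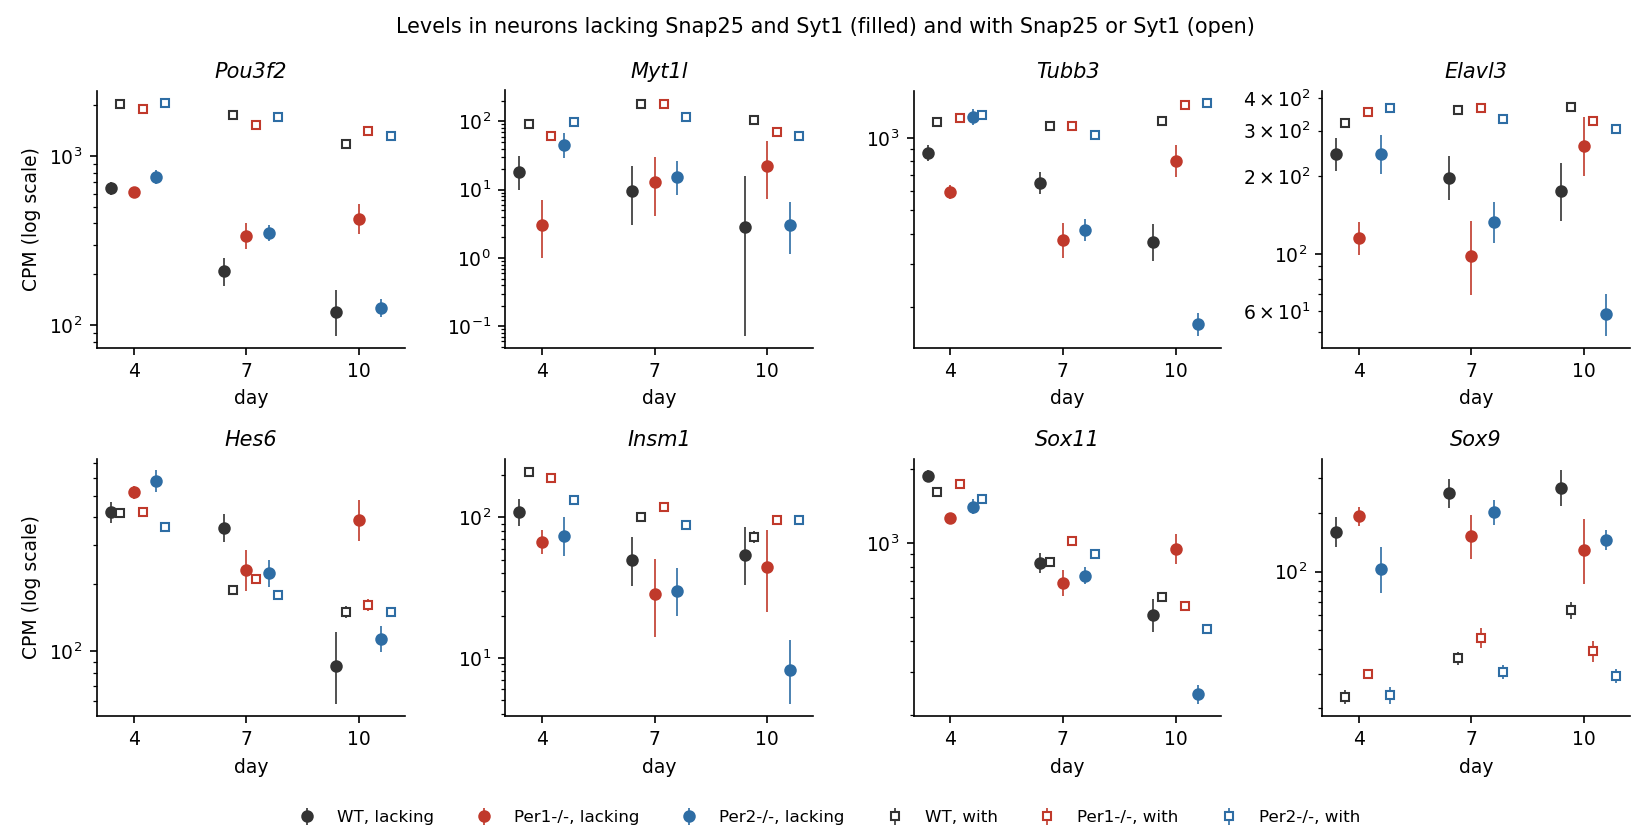
Levels of reprogramming factors and markers (CPM, log scale) in Snap25/Syt1-negative (filled) and Snap25/Syt1-positive (open) neurons by day and genotype, 1 point per library with exact Poisson 95% intervals for counting error. Pou3f2 and Myt1l of the 2 classes do not overlap, Sox11 and Hes6 do, and Sox9 is higher in the Snap25/Syt1-negative neurons of every library.

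Over all genes, more were lower than higher in the Snap25/Syt1-negative neurons. Of 7875 genes with a mean of at least 20 CPM in either class, 1377 (17.5%) were lower in the Snap25/Syt1-negative neurons of all 9 libraries and 476 (6.04%) were higher, and the median log2 ratio of all these genes was -0.12, with 5 CPM added to each value. Among genes lower in all 9 libraries and outside the rule, those with the largest mean ratios were Pclo (-2.71 ± 0.63), which encodes a scaffold of the presynaptic active zone, Gria2 (-2.69 ± 0.99), an AMPA-type glutamate receptor subunit, Myt1l (-2.67 ± 0.98), Snhg11 (-2.65), Gng3 (-2.65), a neuronal G protein subunit, Hepacam2 (-2.53), Syt4 (-2.47), a synaptotagmin, Zfp941 (-2.46), Tceal6 (-2.45), Igfbpl1 (-2.45), Dgkk (-2.45) and Prlr (-2.44). All 12 stayed lower in 9 of 9 libraries without the cells with markers of another class. Pclo was at 18.9 to 108 CPM (median 35.5) in the Snap25/Syt1-negative neurons and at 246 to 347 CPM (median 294) in the others. Gria2 was at 22.0 to 111 CPM (median 51.5) against 220 to 531 CPM (median 447).

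Among genes higher in all 9 libraries, those with the largest mean ratios were Igfbp2 (2.48 ± 1.02), Sox9 (2.17 ± 0.41), a transcription factor of glia and chondrocytes, Sox8 (2.08), Cryab (2.05), a small heat shock protein gene, Acot1 (2.04), 1500015O10Rik (1.99), S100a6 (1.99), Gm3764 (1.97), Tnnt1 (1.94), a slow skeletal troponin T gene, Gstm1 (1.93), Id3 (1.82 ± 0.36) and Kcne1l (1.79). In cells that were neither neurons nor macrophages, mean levels were 251 CPM for Igfbp2, 164 for 1500015O10Rik and 3232 for S100a6. In the Snap25/Syt1-negative neurons they were 250, 120 and 1570 CPM. The other genes were lower in those cells than in the Snap25/Syt1-negative neurons, such as Cryab (190 against 231), Sox9 (112 against 178) and Sox8 (3.86 against 39.7). Without the cells with markers of another class, Igfbp2, Sox9, Sox8, Cryab, Tnnt1, Id3 and Kcne1l stayed higher in 9 of 9 libraries, while Acot1 was higher in 8, Gm3764 and Gstm1 in 7, 1500015O10Rik in 6 and S100a6 in 5. Those cells were chosen by macrophage, Schwann and astrocyte markers only. Of the 282 cells left, 54 (19.1%) had at least 4 muscle genes, so this is no check for Tnnt1. Sox9 was at 160, 192 and 103 CPM in WT, Per1-/- and Per2-/- at day 4, 252, 152 and 202 at day 7, and 269, 129 and 145 at day 10, above the 22.9 to 63.3 CPM of the Snap25/Syt1-positive neurons. It had a UMI in 31.8% of Snap25/Syt1-negative and 8.89% of Snap25/Syt1-positive neurons thinned to 10000 UMI.

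Genes of the vesicle and exocytosis machinery were low as a group. Of the 24 considered genes of 34 on this list, 17 were lower in all 9 libraries and 0 were higher, beside 17.5% and 6.04% of all genes considered, with a median log2 ratio of -1.33, or -1.18 without the cells with other markers, beside -0.12 for all genes. These genes tend to be used by the same cells as Snap25 and Syt1, which the rule set to 0. Rab3a, a vesicle GTPase, was at 54.8 to 134 CPM against 186 to 441, and Syt11 at 89.0 to 405 against 437 to 552, so neither overlapped between the classes. Vamp2, the vesicle SNARE, was lower in 9 of 9 libraries (-0.84 ± 0.60) but in 7 of 9 without the cells with other markers. Cplx2, a complexin, was not lower as a rule, with 33.5 to 284 CPM against 38.3 to 143.

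Dense-core vesicle and channel genes were lower for part of their lists. Of 9 dense-core vesicle genes considered of 10, 4 were lower in all 9 libraries (Chgb, Scg5, Cadps and Pcsk2), beside 17.5% of all genes, and the median was -1.34, beside -0.12. Cpe, a peptide-processing carboxypeptidase, was at 145 to 554 CPM against 287 to 358 (0.01 ± 0.52). Of 12 voltage-gated channel genes considered of 26, 6 were lower in all 9 libraries, beside the same 17.5%, with a median of -0.90. Cacna2d1, an auxiliary calcium channel subunit, was at 74.7 to 358 CPM against 326 to 782, whereas Kcnc1 was at 8.19 to 75.5 against 26.0 to 51.6. None of the 17 genes of transmitter synthesis and transport reached a mean of 20 CPM in either class. Of the neuropeptide genes, 6 of 12 were considered and 0 lay on the same side in all libraries, beside 17.5% of all genes lower and 6.04% higher. In this list, 1 cell held 71.1% of the Gal UMI of the class and 1 cell 29.4% of its Cck UMI.

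Most genes of the neuronal cytoskeleton and growth cone were lower, but remained among the more abundant neuronal transcripts. All 27 were considered, of which 17 were lower in all 9 libraries and 0 were higher, beside 17.5% and 6.04% of all genes (median -1.0, and -0.89 without the cells with other markers). Their summed level was 5545 to 14059 CPM in the Snap25/Syt1-negative neurons, 16752 to 22352 CPM in the Snap25/Syt1-positive neurons, and 2523 to 3771 CPM in cells that were neither neurons nor macrophages. Map1b, encoding a microtubule-associated protein of growing axons, differed by -1.0 ± 0.57, Basp1 by -1.23 ± 0.51 and Tuba1a by -0.84 ± 0.43. Tubb3, encoding the beta III tubulin by which induced neurons are often stained, was at 867, 597 and 1220 CPM in WT, Per1-/- and Per2-/- at day 4, 651, 376 and 415 at day 7, and 369, 804 and 169 at day 10, against 1032 to 1388. It was detected in 88.6% of thinned Snap25/Syt1-negative and 98.9% of thinned Snap25/Syt1-positive neurons.

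Transcription factors of early neurons were closer to the level of the Snap25/Syt1-positive neurons. Of 13 considered of 21, 5 were lower in all 9 libraries (Ebf1, Ebf3, Scrt1, St18 and Bcl11b), beside 17.5% of all genes considered, and 0 higher, with a median of -0.43. Without the cells with markers of another class 3 were lower (Ebf3, St18 and Bcl11b) and 1 higher (Zbtb18). Of all 7875 genes considered, 1074 were lower and 375 higher in all 9 libraries in that setting. The list median was then -0.26. Sox4 was at 656 to 2149 CPM against 928 to 2389 (-0.06 ± 0.48). Sox11 was at 1866, 1256 and 1402 CPM at day 4, 829, 687 and 737 at day 7, and 509, 946 and 244 at day 10, a range that overlapped the 447 to 1731 CPM of the Snap25/Syt1-positive neurons. Ebf3, a factor of differentiating neurons, was at 11.4 to 114 CPM against 67.4 to 171. Of the 6 neuronal subtype factors considered of 25 (median 0.08), 1 was lower in all libraries, a share near the 17.5% of all genes. It was Onecut2, at 22.5 to 94.0 CPM against 109 to 138.

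Of 15 Notch and proneural genes considered of 22, 3 were higher in all 9 libraries, beside 6.04% of all genes, and 1 was lower, beside 17.5%. The median was 0.27. Notch1 encodes a receptor that, when bound by ligands of neighbouring cells, holds back differentiation of the cell that bears it. It was at 18.1 to 137 CPM (median 60.7) against 6.57 to 24.5 (median 17.7), Notch2 differed by 1.22 ± 0.27, and Gadd45g, a stress and differentiation gene, by 1.15 ± 0.62. Each of the 3 was higher in 8 of 9 libraries without the cells with markers of another class. Insm1 was the lower one, at 109, 67.2 and 74.1 CPM at day 4, 49.3, 28.3 and 29.9 at day 7, and 54.4, 44.4 and 8.19 at day 10, against 72.3 to 210. Hes6 was at 421, 519 and 584 CPM at day 4, 360, 232 and 224 at day 7, and 85.9, 391 and 114 at day 10, against 150 to 423, and it was higher in 7 of 9 libraries.

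Part of the progenitor genes were higher. Of 8 considered of 12, 4 were higher in all 9 libraries (Id1, Id2, Id3 and Pax6) and 0 lower, beside 6.04% and 17.5% of all genes, and the median was 1.49, or 0.91 without the cells with markers of another class. Id3, encoding an inhibitor of basic helix-loop-helix factors, was at 481 to 899 CPM (median 693) against 154 to 210 (median 181). Id1 differed by 1.37 ± 0.29 and Id2 by 1.08 ± 0.30, and without the cells with other markers all 3 Id genes were still higher in 9 of 9 libraries. Pax6 was then higher in 4 of 9 libraries and Sox2, the progenitor factor, in 5 of 9 after 8 of 9 with all cells. Fabp7, which progenitors and Schwann cells share, ranged from 8.88 to 3491 CPM (median 1112) against 39.2 to 296 (median 153).

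Part of the neuronal RNA-binding genes were lower. Of 17 genes considered of 18, 7 were lower in all 9 libraries (Elavl2, Nova1, Nova2, Srrm3, Khdrbs2, Celf5 and Cpeb4), beside 17.5% of all genes considered, and 1 was higher, near the 6.04% of all genes, with a median of -0.48. The higher gene was Rest, which encodes the repressor of neuronal genes in other cells, at 26.6 to 95.2 CPM (median 56.9) against 15.6 to 29.7 (median 20.9), a difference of 1.10 ± 0.52, or 1.45 without the cells with other markers. Elavl2 was at 38.4 to 213 CPM against 252 to 310. Ptbp2, the neuronal splicing regulator, was at 35.8 to 121 against 79.97 to 99.96 CPM (-0.18 ± 0.55).

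Some fibroblast genes were higher than in the Snap25/Syt1-positive neurons. Of 24 considered of 26, 8 were higher in all 9 libraries and 0 lower, beside 6.04% and 17.5% of all genes (median 0.62). Without the cells with markers of another class 3 were higher, beside 375 of all 7875 genes. The rule limited Col1a1, Col1a2 and Col3a1 of this list in both classes, and none of them was among the 8. Sparc, a matrix protein gene, was at 909 to 2431 CPM against 378 to 550. Muscle genes had a median of 1.17, or 1.57 without the cells with other markers, a set that kept 54 cells with at least 4 muscle genes. Of 9 muscle genes considered of 21, 1 was higher in all 9 libraries, beside 6.04% of all genes. It was Tnnt1, at 26.3 to 125 CPM against 5.57 to 25.4. Of 16 cell cycle genes considered of 30, 1 was higher in all 9 libraries, near the 6.04% of all genes, and the median was 0.47. It was Mcm7, a replication helicase subunit (0.43 ± 0.36). Of 11 genes of cell cycle exit, Ccnd1, the G1 cyclin D1, was at 139 to 587 CPM (median 368) against 74.7 to 202 (median 99.0), Cdkn2a, an inhibitor of the cycle, was also higher in all 9 libraries, as were 6.04% of all genes, and the median was 0.26.

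In the lists that remain, at most 2 genes lay on the same side in all 9 libraries, although the astrocyte markers had the highest median of any list, at 2.13 with all cells. Jun and Junb of 10 immediate early and stress genes considered of 15 were higher in all 9 libraries, beside 6.04% of all genes (list median 0.11). Of 11 interferon response genes considered of 20, Ifitm3 was higher in all libraries, at 183 to 802 CPM against 53.9 to 150, and Ifi27l2a was lower, at 57.2 to 329 against 289 to 704 (list median 0.59), beside 6.04% and 17.5% of all genes. Of the 7 clock genes considered of 18, 0 lay on the same side in all libraries (median 0.01), beside 6.04% of all genes higher and 17.5% lower. The 8 macrophage markers summed to 17.1 to 2502 CPM against 133 to 904 (median log2 ratio -0.12), Schwann markers to 74.6 to 4175 against 66.8 to 429 (0.76, and 0.24 without the cells chosen for such markers), and astrocyte markers to 57.7 to 3469 against 67.5 to 287 (2.13, and 0.34 likewise). No endothelial and no epithelial marker reached a mean of 20 CPM in either class.

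**Figure D4:**
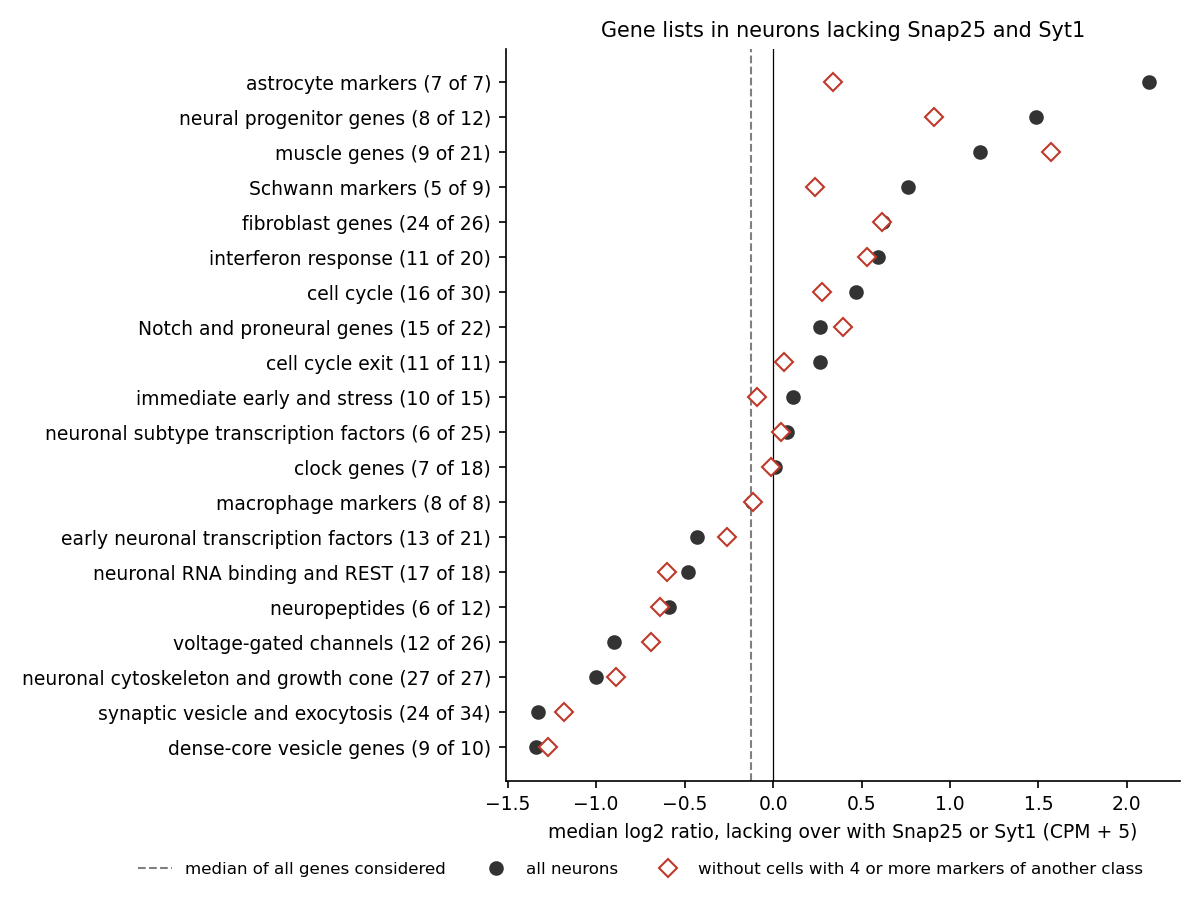
Median log2 ratio of Snap25/Syt1-negative over Snap25/Syt1-positive neurons (x axis) for each gene list (y axis, with the genes considered of those listed), for all neurons (filled) and without cells that carry 4 or more markers of another class (open), with the median of all 7875 genes as a dashed line at -0.12. Vesicle, dense-core vesicle, channel and cytoskeleton genes lie to the left, progenitor genes, muscle genes and glial markers to the right, and the astrocyte median moves from 2.13 to 0.34 when those cells, which were chosen by such markers, are left out.

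Changes within the Snap25/Syt1-negative neurons were tested over the 9 library sums with day and genotype as factors, and the rule did not use these contrasts. The sums held 219651 UMI (Per1-/- at day 10) to 1892826 UMI (Per2-/- at day 10), and fewer cells of a kind within the class and less RNA per cell cannot be told apart in them. The labels do not say whether libraries came from separate cultures, so p-values measure only the spread between libraries. Between day 4 and day 7, edgeR called 0 of 8925 genes (0%), with 518 at an unadjusted p under 0.05, and DESeq2 called 8. Between day 4 and day 10, edgeR called 42 of 8925 genes (0.471%), of which 31 rose (0.347%) and 11 fell (0.123%).

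Most of the genes called at day 10 also shifted in the other cells of the cultures. For 24 of the 42, cells that were neither neurons nor macrophages moved in the same direction by more than 1 on the log2 scale from both earlier days in all 3 genotypes, as did 53 of all 8925 genes, and day 10 has its own gene table. Rnasek, for example, went from 1.31, 1.22 and 3.61 CPM in WT, Per1-/- and Per2-/- at day 4 to 209, 266 and 225 at day 10, and Ptp4a1 from 135, 116 and 116 to 5.72, 0 and 0. Ndfip1, Timm23, Atp6v0c, Mrpl53, Rpl13a, Ube2v1 and Fam89b were the other rises with the smallest p, and Nxf1, Coro1b and Fam220a were among the falls. The part of the gene table in these changes was not tested, and they are not read further.

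The other 18 genes, 11 higher and 7 lower, did not shift in the remaining cells by that rule, which was also set after the data were seen. Missing that limit is not absence of change. Among these genes, the log2 change in the remaining cells from day 4 to day 10 was 1.53 for Sox10, 1.79 for Fxyd1 and 1.62 for Olfml2a. It was -0.40 for Gap43, -0.67 for Pbx3 and -0.83 for Dach1. Gap43, encoding a growth cone protein, rose by 3.13 ± 0.44 (SE, edgeR adjusted p = 0.0249), from 17.1, 16.5 and 27.1 CPM at day 4 to 341, 146 and 81.4 at day 10. Without the cells with markers of another class the Gap43 change was 1.38 (edgeR adjusted p = 0.518). Gap43 also had higher levels at day 10 in the Snap25/Syt1-positive neurons, at 22.1, 22.1 and 30.7 CPM and then 439, 176 and 279. The Schwann cell genes Sox10 (2.61 ± 0.37, edgeR adjusted p = 0.0249) and Foxd3 (4.07 ± 0.69, 0.0498) also rose. Sox10, the master factor of glia of the neural crest, was at 24.9, 0 and 18.1 CPM at day 4, 22.8, 0 and 14.4 at day 7, and 132, 4.44 and 94.2 at day 10, so that WT and Per2-/- were high and Per1-/- was low. Its UMI lay in 46 cells, 40 of them from day 10, and both genes fell below the filter without the cells with markers of another class, which were themselves chosen by Schwann markers such as Sox10. In the Snap25/Syt1-positive neurons Sox10 was at 1.99, 1.08 and 3.24 CPM at day 4 and at 18.4, 12.5 and 25.4 at day 10. Cryab rose by 2.08 ± 0.34 (edgeR adjusted p = 0.0410), from 118, 99.0 and 74.1 CPM to 355, 275 and 454, and without the cells with markers of another class its change was 2.30 (edgeR adjusted p = 0.414). Its levels in the Snap25/Syt1-positive neurons were 32.1, 22.9 and 26.0 CPM at day 4 and 63.0, 52.4 and 78.4 at day 10.

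Among the falls, Pbx3 and Dach1 are transcription factor genes. Pbx3, a TALE homeobox factor, fell by 1.97 ± 0.27 (edgeR adjusted p = 0.0212), from 236, 130 and 175 CPM at day 4 through 121, 100.4 and 69.9 at day 7 to 45.8, 48.8 and 32.8 at day 10. The groups of days 4 and 10 did not overlap, and without the cells with markers of another class the change was -2.0 (edgeR adjusted p = 0.0141). Dach1 fell by 2.27 ± 0.31 (edgeR adjusted p = 0.0212), from 106, 41.6 and 137 to 25.8, 13.3 and 17.9 CPM, and without those cells its change was -1.86 (edgeR adjusted p = 0.0974). Both genes also had lower levels at day 10 in the Snap25/Syt1-positive neurons, where Pbx3 went from 339 to 356 CPM at day 4 to 85.6 to 110 at day 10. Igfbpl1 fell by 2.75 ± 0.46 (edgeR adjusted p = 0.0483), Susd6 by 1.30 ± 0.21 (0.0410) and Mgarp by 5.59 ± 0.89 (0.0410), from 48.6, 22.0 and 25.3 CPM to 0, 0 and 0.512. Without the cells with markers of another class the changes were -2.18 for Igfbpl1 (edgeR adjusted p = 0.152), -1.48 for Susd6 (0.0974) and -4.89 for Mgarp (0.0434), and with thinned cells -1.80 for Igfbpl1 (0.231) and -0.91 for Susd6 (0.229). In the Snap25/Syt1-positive neurons Susd6 was at 141, 129 and 159 CPM at day 4 and 65.7, 65.3 and 40.7 at day 10, Mgarp at 97.0, 105 and 57.1 and then 19.6, 30.7 and 21.4, and Dach1 at 193, 182 and 193 and then 83.4, 64.9 and 60.8, so these 3 also had lower levels at day 10 there, whereas Igfbpl1 was at 173, 204 and 184 and then 157, 218 and 235.

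None of the factors and markers named here passed the test between days 4 and 10, although several were lower in the sums. The fitted change was -1.69 ± 0.38 for Pou3f2 (edgeR adjusted p = 0.145), -1.45 ± 0.46 for Hes6 (0.315), -1.48 ± 0.46 for Insm1 (0.292), -1.42 ± 0.37 for Sox11 (0.215), -1.03 ± 0.53 for Tubb3 (0.504) and 0.33 ± 0.29 for Sox9 (0.695). In each of Pou3f2, Hes6, Sox11 and Tubb3 the Per1-/- library of day 10 was the highest of that day, whereas Insm1 and Sox9 were highest in WT. That Per1-/- library held 16 members, of which 12.5% carried markers of another class, against 66.7% in WT and 54.3% in Per2-/-. The part of this difference in the levels was not tested. By list, 3 of 8 Schwann markers tested rose, Gap43 was the 1 of 27 cytoskeleton genes that did, and 0 of the tested members of every other list were called, beside 0.347% of all genes that rose and 0.123% that fell. The median change was 3.42 for the Schwann markers and 2.23 for the macrophage markers, beside 0.02 for all genes tested. The count of 42 ran from 7 without WT at day 4 to 214 without Per1-/- at day 10, and Gap43 was called in 5, Pbx3 in 4, Dach1 and Sox10 in 3, and Foxd3 and Igfbpl1 in 2 of the 9 fits that left out a library.

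Few differences between genotypes passed the test within the class. For Per1-/- against WT, edgeR called 1 of 8925 genes (0.0112%), Sox10. It differed by -5.82 ± 0.60 on the log2 scale (edgeR adjusted p = 0.0409) and had 0, 0 and 4.44 CPM in Per1-/- against 24.9, 22.8 and 132 CPM in WT. Few cells lay behind these levels, and all 19 Sox10 UMI of WT at day 4 were in 1 cell. At least 4 Schwann markers were carried by 1, 1 and 5 cells in WT at days 4, 7 and 10, and by 0, 0 and 1 in Per1-/-. The call was lost in each fit that left out 1 library other than Per1-/- at day 4, while the difference stayed between -7.33 and -5.10. The call was also lost after likely doublets were left out and with cells thinned to 10000 UMI. Sox10 could not be tested without the cells with markers of another class, since it is one of the markers that chose them and fell below the filter. For Per2-/- against WT, edgeR called 0 of 8925 genes (0%), with 358 at an unadjusted p under 0.05, and DESeq2 called 0.

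The change from day 4 to day 10 was then compared between the 2 classes of neuron. In the edgeR fit of a class by day term, with each library as a block, 23 of 14266 genes were called (0.161%), 5 with a more positive change in the Snap25/Syt1-negative neurons (0.035%) and 18 with a more negative one (0.126%). The rule holds Snap25 and Syt1 at 0 in one class on every day and leaves them free in the other, so the term for genes that neurons use with them is not independent of the rule. Stmn2 and Stmn3 among the 23 are themselves genes of the rule. The calls are therefore given as a description of the fit, without their p. None of the 23 shifted at day 10 in the remaining cells by the rule above. With 5 CPM added to each value, that limit is hard to pass for genes with low levels there. Gng3, Igfbpl1 and Dgkk, for example, had means of 7.72, 4.03 and 6.81 CPM in those cells. For such genes the rule cannot show whether the gene table had a part.

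The named genes with the more negative change are described first. Gng3 was at 85.3, 32.4 and 145 CPM in the Snap25/Syt1-negative neurons of WT, Per1-/- and Per2-/- at day 4 and at 42.9, 13.3 and 36.8 at day 10, while the Snap25/Syt1-positive neurons went from 132, 164 and 214 to 393, 360 and 638. The 2 classes thus moved in opposite directions in each genotype, a difference of -2.94 ± 0.32, but with cells thinned to 10000 UMI and classed again the difference was -0.02 and was not called. Gria2 showed the same pattern, from 86.7, 62.4 and 81.3 to 37.2, 40 and 22.0 CPM in the Snap25/Syt1-negative and from 220, 252 and 260 to 531, 451 and 481 in the Snap25/Syt1-positive neurons (-2.41 ± 0.33, and -0.83 and not called with thinned cells). Snrpn (-1.76 ± 0.25) was at 81.4, 63.0 and 56.0 and then 123, 62.2 and 48.6 CPM, against 129, 128 and 120 and then 461, 454 and 461. Rab3a (-1.65 ± 0.28) and Pcsk1n (-2.11 ± 0.35), a secretory granule protein gene, were the called members of the synaptic vesicle and dense-core vesicle lists, of 34 and 10 genes tested, and Dpysl5 and Mllt11 were those of 27 cytoskeleton genes. Of all genes tested, 0.126% were called with a more negative change. The median class difference in change was -1.08 for the synaptic vesicle list, -1.0 for the cytoskeleton list and 2.51 for the cell cycle list, beside -0.0041 for all genes tested.

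**Figure D5:**
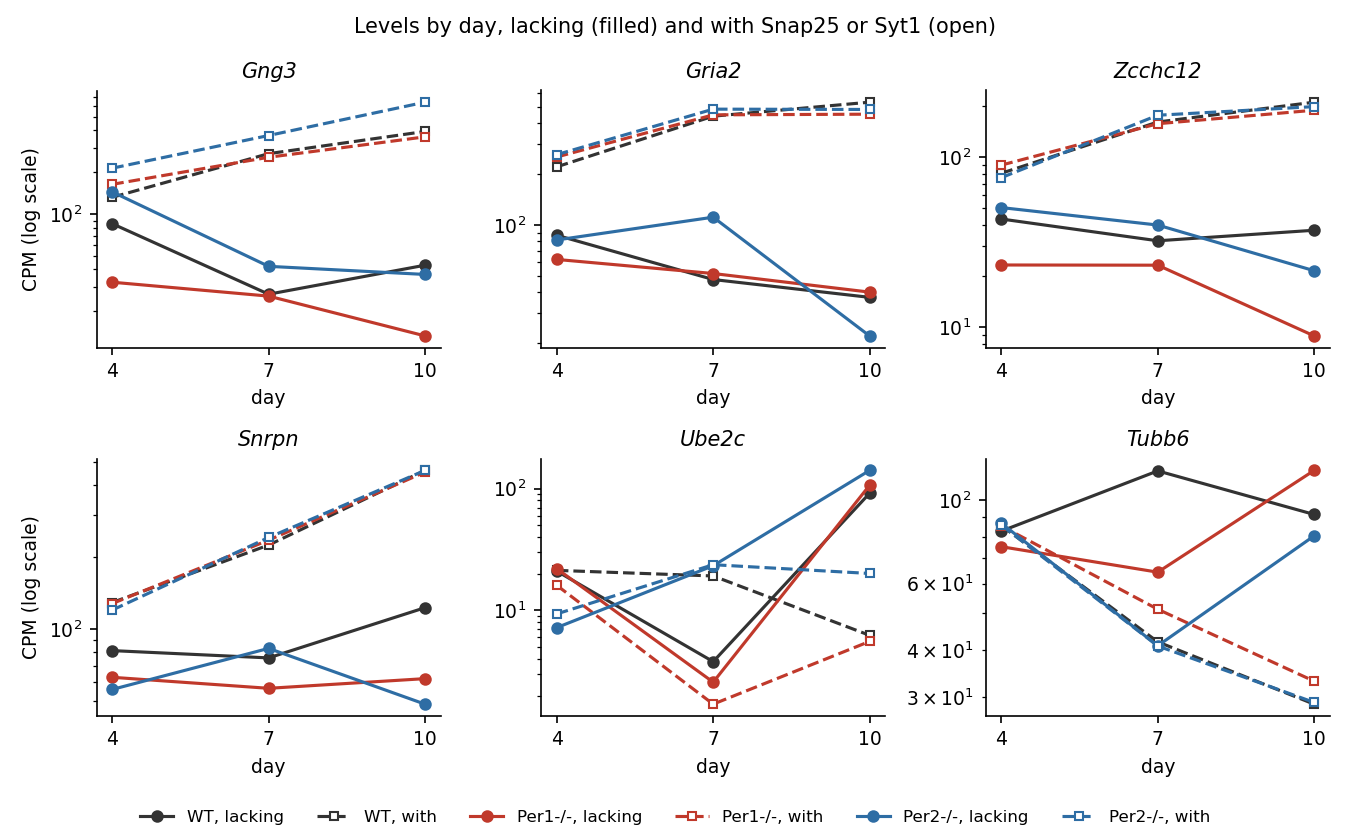
Levels (CPM, log scale) by day of genes called in the class by day fit, with lines for each genotype in Snap25/Syt1-negative (filled) and Snap25/Syt1-positive (open) neurons, 1 library per point. The cells are not thinned, and with thinned cells Gng3 (-0.02), Gria2 (-0.83) and Zcchc12 (-0.99) were not called. Gng3 and Gria2 part between the classes from day 4 to day 10, as do Zcchc12 and Snrpn, while Ube2c in the Snap25/Syt1-negative neurons of day 10, at 91.6 to 141 CPM, lies above the Snap25/Syt1-positive neurons.

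The 5 genes with the more positive change (0.035% of all genes tested) included Ube2c and Mki67, which were 2 of 30 cell cycle genes tested. Ube2c, a ubiquitin-conjugating enzyme of the anaphase-promoting complex, was at 21, 22.0 and 7.23 CPM at day 4 and 91.6, 107 and 141 at day 10 in the Snap25/Syt1-negative neurons, and at 21.3, 16.0 and 9.37 and then 6.25, 5.56 and 20.1 CPM in the Snap25/Syt1-positive neurons (3.56 ± 0.46). Mki67 was at 5.25, 42.2 and 18.1 and then 220, 93.2 and 118 CPM (3.66 ± 0.62), and Hmmr, a spindle protein gene, differed by 4.59 ± 0.69. Cycling transcripts were more often found in the cells with markers of another class, where Mki67 had a UMI in 18.3% of cells and Top2a in 26.6%, against 3.90% and 4.61% of the other Snap25/Syt1-negative neurons and 26.4% and 28.2% of macrophages. Without those cells the Mki67 difference was 4.76, but only 11 of the 282 cells left had an Mki67 UMI, and WT at day 10 kept 9 cells. The transcripts came from few cells: Mki67 had a UMI in 19 of the 137 Snap25/Syt1-negative neurons of day 10, and 3 cells held 50% of its UMI. Of the other genes of the group, Tubb6, a beta tubulin gene, differed by 1.76 ± 0.31 and Tnnc2, a fast muscle troponin gene, by 6.21 ± 0.97, with 52.5% of its UMI of day 10 in 1 cell.

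These differences changed with the processing. When cells were thinned to 10000 UMI and classed again, 131 genes were called, 9 of them shared with the 23. Ube2c (4.03) and Snrpn (-1.15) were still called, whereas, beside Gng3 and Gria2, Rab3a (-0.70), Pcsk1n (-0.53), Mki67 (1.88), Hmmr (2.49) and Tnnc2 (3.89) were not. Without the cells with markers of another class 145 genes were called, 20 of them among the 23, with Gng3 at -3.79, while Hmmr (5.63) was not. Without WT at day 4, 0 genes were called, and 390 were called without Per1-/- at day 10. Gng3 was called in 8 of the 9 fits that left out a library, Ube2c in 7, Gria2 in 6 and Mki67 in 5. These counts only describe how the fit moved. They are no support for a class difference, since the class by day term is not independent of the rule.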

How the data were processed

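The authors deposited UMI counts per gene and barcode, 1 matrix per library (10x 3′ v3.1). Per the file headers they were made with Cell Ranger 4.0.0 (days 4 and 7) and 6.0.0 (day 10); the submitters' processing notes name Cell Ranger 7.1 and mm10. The 30406 gene identifiers of both feature tables were used. Cells were kept from 3000 UMI upwards and up to 20% of mitochondrial UMI. Doublets were left in and left out as an alternative, ranked by Scrublet (scanpy 1.11.5). Groups came from the labels, with 1 library each.

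Counts of a class were summed per library and tested with edgeR 4.0.16 (R 4.3.3; TMM, filterByExpr, quasi-likelihood F-test, day and genotype as factors, or library, class, class by day and class by genotype), with Benjamini-Hochberg adjustment and a threshold of 0.05. DESeq2 1.42.0 was an alternative. The scripts were tested on simulated data. Shares were compared with exact permutation tests of libraries. Class ratios used log2(CPM + 5) per library. CPM carry exact Poisson and shares Clopper-Pearson 95% intervals, for counting error only. Markers and lists, 24 in all, and the members were chosen with earlier results of these data known. Named genes were the genes of the rule, markers and factors, the 12 with the largest class ratio in each direction of those on 1 side in all 9 libraries, the 8 called genes with the smallest p in each direction of each contrast, and the 4 most abundant of each list with its called members; others named were chosen after their values were seen. Some genes that this rule names are not reported here.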

Additional observations from a re-analysis of the deposited data

Results flagged for a closer look

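The change from day 4 to day 10 was called as different between the Snap25/Syt1-negative and Snap25/Syt1-positive neurons for 23 of 14266 genes in the edgeR fit of the class by day term, which is not independent of the rule that set Snap25 and Syt1 to 0 in one class. Of the genes named by the rule for named genes, the change was more negative in the Snap25/Syt1-negative neurons for Gng3 (-2.94), Gria2 (-2.41), Igfbpl1 (-3.01), Zcchc12 (-2.15), Stmn2 (-1.74), Mllt11 (-1.73), Snrpn (-1.76) and Dgkk (-2.60), each on the log2 scale; Stmn2 is a gene of the neuron rule. It was more positive for Ube2c (3.56), Hmmr (4.59), Tnnc2 (6.21), Mki67 (3.66) and Tubb6 (1.76). With cells thinned to 10000 UMI and classed again, Gng3 (-0.02), Gria2 (-0.83), Zcchc12 (-0.99), Dgkk (-1.08), Hmmr (2.49), Tnnc2 (3.89) and Mki67 (1.88) were no longer called. Zcchc12 was at 43.3, 23.2 and 50.6 CPM in WT, Per1-/- and Per2-/- on day 4 and at 37.2, 8.88 and 21.5 on day 10 in the Snap25/Syt1-negative neurons, and at 80.6, 90.0 and 76.0 and then 211, 189 and 199 CPM in the Snap25/Syt1-positive neurons. Mllt11 was at 217, 144 and 211 and then 112, 107 and 70.6 CPM, against 315, 289 and 298 and then 467, 458 and 525 CPM.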

How the results depend on the processing

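The slope of the share of neurons over days was positive and passed the test in no alternative run, and its size varied. The slope of 0.579 percentage points per day became 0.104 without cells with markers of another class, 0.121 with at least 6 of 8 neuronal genes, 0.206 with thinning and 0.352 with a collagen limit of 30, and ran from 0.227 (without WT on day 10) to 0.930 (without WT on day 4) when 1 library was left out. The Per1-/- difference of -1.44 became 1.07 with cells thinned to 10000 UMI, 0.0016 with at least 6 of 8 neuronal genes and 0.104 without cells with markers of another class, and ran from -2.63 to 0.295 (without Per1-/- on day 10) when 1 library was left out. The Per2-/- difference of 1.29 became -0.330 with thinning and -0.179 with at least 6 genes, and ran from 0.472 to 2.10. Per kept cell, the slope was -0.0526 without cells with markers of another class (exact permutation p = 0.0278) and ran from -0.0525 to 0.0089 (without Per2-/- on day 4), and the Per1-/- difference became 0.0088 with thinning and ran from -0.260 to -0.0414.

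Counts of called genes moved more. With no filter on low counts they were 69 for day 7, 287 for day 10, 45 for Per1-/-, 43 for Per2-/- and 188 for the class by day term. DESeq2 gave 8, 104, 6, 0 and 88, and thinning 1, 89, 2, 8 and 131. Without cells with markers of another class, day 10 had 24 calls, 20 of them shared with the 42, Per1-/- had 0 and the class by day term 145. Without likely doublets Per1-/- had 0 and the class by day term 101, and with at least 6 genes 0 and 206. A Y-linked covariate left 0 for Per1-/-. Leaving out 1 library gave 0 to 3 for day 7, 7 to 214 for day 10, 0 to 12 for Per1-/-, 0 to 0 for Per2-/- and 0 to 390 for the class by day term. For day 10 every library but Per1-/- on day 7 moved the count by over 1.5 times, with 121 without Per1-/- and 16 without Per2-/- on day 4, 14 without WT and 25 without Per2-/- on day 7, and 9 without WT and 10 without Per2-/- on day 10. For the class by day term the same held of the libraries of days 4 and 10, with 247 and 10 without Per1-/- and Per2-/- on day 4 and 4 and 9 without WT and Per2-/- on day 10. The cause of these shifts was not tested. No paired analysis was possible by replicate number because the labels give none. Libraries were blocks in the class by day fit, and day was a term in the genotype fits. The class sums of 219651 to 1892826 UMI and the 16 to 94 cells behind them limit the precision.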
